A study of Mus musculus with 2 samples.

Results

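The mir-148/mir-152 family of the mouse consists of 3 microRNA genes, Mir148a, Mir148b and Mir152, and was measured in the midbrain of embryos at embryonic day 10.5. The members were taken by gene symbol, and all 3 were found among the 1973 microRNA genes with a count. Small RNA of less than 30 nt came from midbrains of healthy B6NCrl embryos of both sexes, pooled from 69 embryos for biological replicate 1 and from 51 embryos for biological replicate 2. These libraries form the only group, so levels and the spread between pools can be given, and no contrast between tissues, stages or treatments. Replicate 1 held 3297835 reads assigned to microRNA genes and replicate 2 held 3682410, which are 42.2% and 39.1% of all their reads.

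MicroRNAs are excised from a hairpin precursor, and 1 strand of the hairpin, the guide, is loaded into an Argonaute protein and pairs with messenger RNAs mainly through its seed, bases 2 to 8. In this family the guide is the strand from the 3′ arm. The family is best known for repressing DNA methyltransferase 1, the enzyme that copies DNA methylation to the new strand in dividing cells, a role described in human and mouse cells. MiR-148a is also known from liver, where it represses the LDL receptor. The neural tube at this stage consists largely of dividing neuroepithelial cells.

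The sequences define the family and show how its reads can be told apart. The guide strands, from RefSeq on GRCm38.p6 and written 5′ to 3′ with the seed in capitals, are as follows.
Mir148a 3′ arm: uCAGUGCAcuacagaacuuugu
Mir148b 3′ arm: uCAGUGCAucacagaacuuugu
Mir152 3′ arm: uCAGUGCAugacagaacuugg

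The first 8 bases were identical in all 3 guides, and 18 of the 21 positions they have in common. Counted from the 5′ end, the guide of Mir148b differs from that of Mir148a by C9U and U10C. The guide of Mir152 differs from that of Mir148b by C10G and U20G, and is 1 base shorter. Among 1738 mature mouse sequences in the RefSeq table, 3 carried this seed, those of the members. The strands of the 5′ arm are less alike. The seeds, again in capitals, are the same in Mir148a and Mir148b and differ by A3G in Mir152.
Mir148a 5′ arm: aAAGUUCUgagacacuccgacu
Mir148b 5′ arm: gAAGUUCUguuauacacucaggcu
Mir152 5′ arm: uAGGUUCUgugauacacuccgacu

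The deposited counts are per gene, so the reads of both arms of a precursor are added together and the arms cannot be told apart. The precursors show what 1 count stands for, with the mature strands of the 5′ and 3′ arms in capitals.
Mir148a precursor: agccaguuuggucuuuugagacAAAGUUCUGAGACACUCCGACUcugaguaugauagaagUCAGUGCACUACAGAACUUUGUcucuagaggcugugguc
Mir148b precursor: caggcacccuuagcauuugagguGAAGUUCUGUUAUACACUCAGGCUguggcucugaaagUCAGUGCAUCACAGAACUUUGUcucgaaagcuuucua
Mir152 precursor: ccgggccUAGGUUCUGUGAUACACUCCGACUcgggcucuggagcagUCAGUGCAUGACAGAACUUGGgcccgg

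Mir152 has the shortest precursor, 73 bases against 99 in Mir148a and 97 in Mir148b, and the highest GC content, 61.6% against 45.5% and 45.4%. The longest stretch that any member shares with another precursor of the table is 15 bases, between Mir148a and Mir148b. Reads that mapped to several places stand outside the gene counts, and made up 30.9% of all reads in replicate 1 and 29.5% in replicate 2. A run of 20 or more bases in common with some other microRNA locus was found for none of the members and for 952 of the counted genes.

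The 3 genes lie on separate chromosomes in like surroundings (mm10, GENCODE M21). Mir148b (ENSMUSG00000065560.1) is at chr15:103285125-103285221 on the plus strand, in the first intron of Copz1. Mir152 (ENSMUSG00000065515.1) is at chr11:96850393-96850465 on the plus strand, in the first intron of Copz2, 517 bases from the start of a protein-coding transcript of that gene. Copz1 and Copz2 encode the zeta subunits of coatomer, the coat of COPI vesicles that move between Golgi and endoplasmic reticulum, and each is transcribed in the same direction as its microRNA. Mir148a (ENSMUSG00000065505.1) is at chr6:51269812-51269910 on the minus strand and lies in no other annotated gene.

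Upstream of each member stands a gene of the Nfe2 family, transcription factors of the CNC class, and a Cbx gene for a heterochromatin protein HP1. For Mir148a these are Nfe2l3 at 162.8 kb and Cbx3 at 200.5 kb. For Mir148b they are Nfe2 at 26.7 kb and Cbx5 at 45.3 kb, and for Mir152 Nfe2l1 at 20.4 kb and Cbx1 at 41.8 kb. These gene families were chosen from the annotation and from knowledge of these loci, and no test was made of the arrangement.

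**Figure D1:**
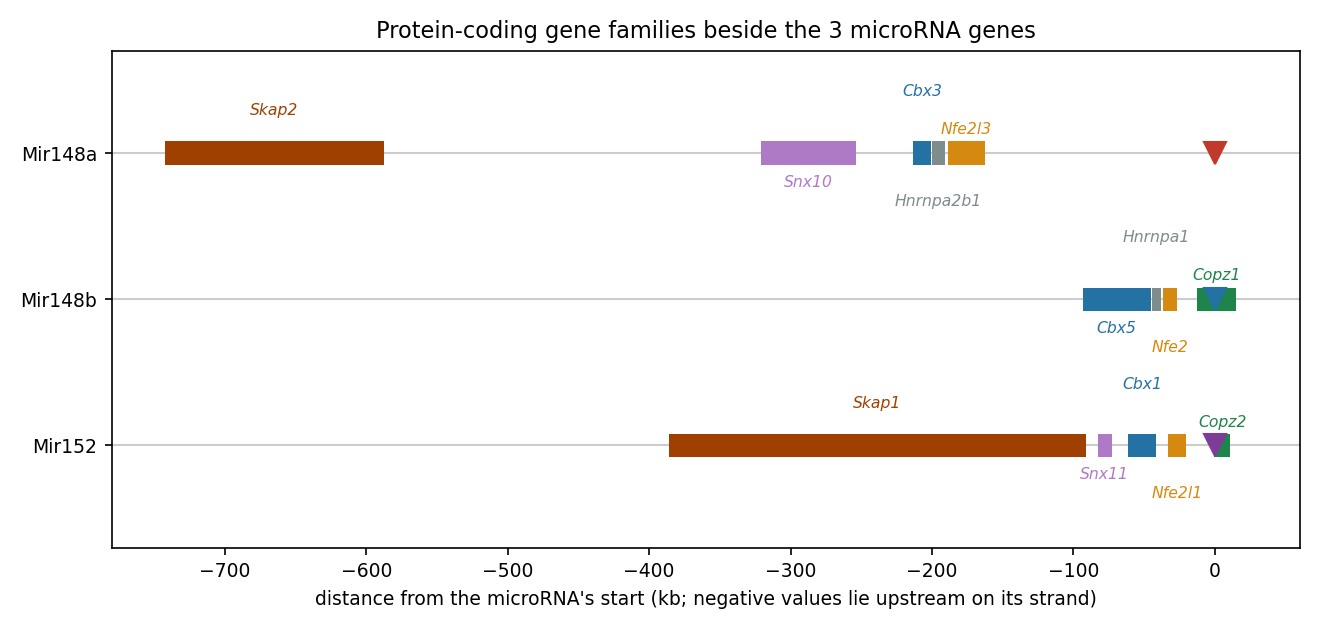
Position of selected protein-coding genes (bars, coloured by gene family, drawn at least 4 kb wide) relative to the start of each microRNA gene (triangles), in kb, with negative values upstream on the strand of the microRNA. In all 3 rows a gene of the Nfe2 family and a Cbx gene lie upstream, and Mir148b and Mir152 lie within Copz1 and Copz2.

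Mir148a was the most abundant member. It had 1193 reads in replicate 1 and 1246 in replicate 2, which are 361.8 and 338.4 CPM (reads per 1000000 gene-assigned reads). The mean of 350.1 ± 16.5 CPM (SD, n = 2) put it at rank 155 of the 1973 genes. Mir148a stood at about the level of Mirlet7d (352.8 ± 98.8 CPM, SD, n = 2), the gene next above it, and of Mir760 (337.4 ± 4.81 CPM), the gene next below.

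Mir148b had 944 reads in replicate 1 and 922 in replicate 2. These are 286.2 and 250.4 CPM, with a mean of 268.3 ± 25.4 CPM (SD, n = 2) and rank 170. Its neighbours in rank were Mir700 (269.4 ± 16.1 CPM) and Mir135a-1 (260.0 ± 40.1 CPM).

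Mir152 was the least abundant member, with 294 reads in replicate 1 and 304 in replicate 2. These are 89.1 and 82.6 CPM, with a mean of 85.9 ± 4.66 CPM (SD, n = 2) and rank 233, between Mir27a (87.6 ± 1.35 CPM) and Mir128-1 (84.6 ± 1.31 CPM). The neighbours in rank were chosen by mean CPM, so their closeness to the members follows from the choice.

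Within the family the order Mir148a, Mir148b, Mir152 was the same in both libraries, and the values of no 2 members overlapped. The lower value of Mir148a, 338.4 CPM, was above the higher value of Mir148b, 286.2 CPM. The lower value of Mir148b, 250.4 CPM, was above the higher value of Mir152, 89.1 CPM. With 2 values for each gene, the smallest two-sided p that an exact permutation test can give is 0.333, so the order is given as a description. A read covers a mature microRNA of 21 to 24 bases, so levels were not divided by length. The efficiency of cloning, which depends on the sequence of a small RNA, was not tested.

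Read ratios between members varied little between the pools. Mir148a had 1.26 reads for each read of Mir148b in replicate 1 (95% counting interval 1.16 to 1.38) and 1.35 in replicate 2 (1.24 to 1.47), a mean of 1.31 ± 0.0620 (SD, n = 2). Its ratio to Mir152 was 4.06 (3.57 to 4.63) in replicate 1 and 4.10 (3.61 to 4.66) in replicate 2. Mir148b had 3.21 reads for each read of Mir152 (2.81 to 3.67) in replicate 1 and 3.03 (2.66 to 3.46) in replicate 2. For every pair of members the ratio of each library lay within the counting interval of the other. The intervals are exact (Clopper-Pearson) and cover counting error only, not the spread between pools. Without molecular identifiers several reads may stem from 1 molecule, so the intervals may be too narrow.

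**Figure D2:**
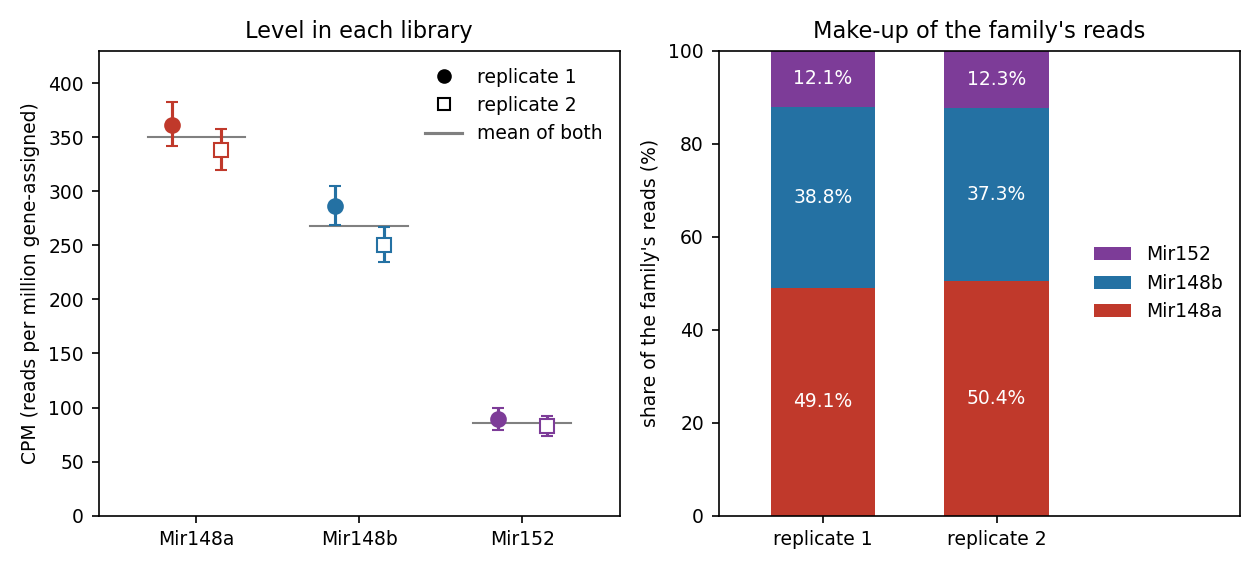
Left, CPM of each member in replicate 1 (filled circles) and replicate 2 (open squares), with 95% Wilson counting intervals and the mean as a grey line. Right, share of the family's reads held by each member in each library. Mir148a held 49.1% and 50.4%, Mir148b 38.8% and 37.3%, and Mir152 12.1% and 12.3%.

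Of the 2431 reads of the family in replicate 1, Mir148a held 49.1% (95% Wilson interval 47.1 to 51.1%), Mir148b 38.8% (36.9 to 40.8%) and Mir152 12.1% (10.9 to 13.5%). Of the 2472 reads in replicate 2 these shares were 50.4% (48.4 to 52.4%), 37.3% (35.4 to 39.2%) and 12.3% (11.1 to 13.7%). Mir148a and Mir148b together hence made up most of the family in both pools, and the intervals of the libraries overlapped for each member.

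The family as a whole had 737.2 CPM in replicate 1 and 671.3 CPM in replicate 2, or 704.2 ± 46.6 CPM (SD, n = 2). That is 0.0737% of the gene-assigned reads in replicate 1 (Wilson interval 0.0708 to 0.0767%) and 0.0671% in replicate 2 (0.0645 to 0.0698%). A single gene with the family's summed level would have stood at rank 120 in replicate 1 and at rank 122 in replicate 2.

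The reads lay on 1 strand of each gene. The files give counts for each strand without naming them, and the column with most reads over all genes, taken as the gene's own strand, held every read of the family except 1 read of Mir148a in replicate 2. For Mir152, with the fewest reads, a count of 0 allows a share of up to 1.02% on the other strand in replicate 1 and 0.987% in replicate 2.

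All 3 members had a slightly higher level in replicate 1, and 1 of them beyond counting error. The median log2 ratio over the 338 genes of mean CPM 10 or more was 0.03. Higher and lower levels in replicate 1 were thus both common, and all 3 members lay above this median. Mir148b was 1.14-fold higher in replicate 1 than in replicate 2 (log2 ratio 0.19, 95% counting interval of the ratio 1.04 to 1.25; exact binomial test, two-sided, Benjamini-Hochberg adjusted p = 0.0117). Mir148a had a ratio of 1.07 (log2 0.09, interval 0.983 to 1.15, adjusted p = 0.1995 by the same exact test) and Mir152 a ratio of 1.08 (log2 0.11, 0.914 to 1.27, adjusted p = 0.518, exact test). The test compares the reads of the 2 libraries, scaled by TMM, and not conditions. It called 1 of the 3 members, in a background where 49.7% of the 485 genes tested were called and 26.6% were called as higher in replicate 1.

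The spread of each member between the pools was below the median of genes of like abundance. The SD was 4.72% of the mean for Mir148a, 9.45% for Mir148b and 5.43% for Mir152. Its median over the 79 genes with a mean CPM from that of Mir152 to that of Mir148a was 11.7%. Over the 338 genes of mean CPM 10 or more, the median absolute log2 ratio was 0.26. The largest among the members, 0.19 in Mir148b, was reached or undercut by 124 of these genes (36.7%), so spreads this small were common and are not particular to the family.

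**Figure D3:**
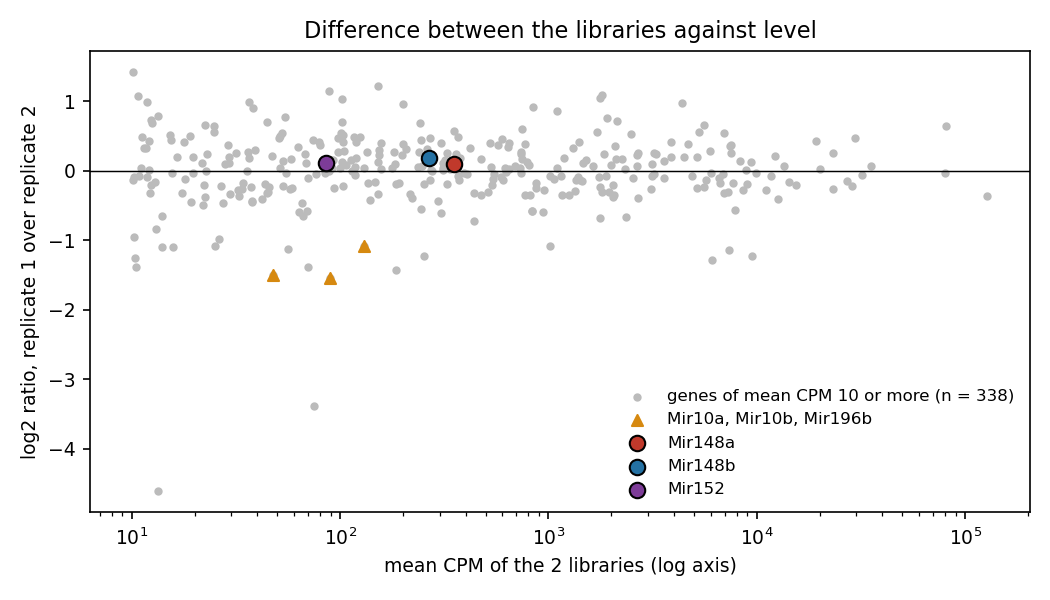
The log2 ratio of replicate 1 over replicate 2 (scaled by TMM) against mean CPM on a log axis, for the 338 genes of mean CPM 10 or more. Mir148a, Mir148b and Mir152 lie at 0.09, 0.19 and 0.11, and the Hox cluster microRNAs Mir10a, Mir10b and Mir196b (triangles) at -1.08, -1.54 and -1.50.

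Those microRNAs of the Hox clusters on the same chromosomes that had reads had ratios of the other sign. Mir148a had a log2 ratio of 0.09, and Mir196b, at 960 kb, had 82 reads in replicate 1 and 260 in replicate 2 and a log2 ratio of -1.50 (exact binomial test over all genes, adjusted p = 3.37e-18). Mir152 had a log2 ratio of 0.11, and Mir10a, at 533 kb, had 275 and 648 reads and a log2 ratio of -1.08 (adjusted p = 1.64e-26, same exact test). Mir148b had 0.19, and Mir615, at 270.1 kb and with 23 and 40 reads, had -0.63 (adjusted p = 0.172, exact test). Mir196a-2, at 311.7 kb from Mir148b, had 2 and 14 reads and a log2 ratio of -2.38 (adjusted p = 0.0117, exact test), and Mir196a-1, at 585 kb from Mir152, had no read in either library. These microRNAs lie within the Hox clusters, whose genes are known to pattern hindbrain and trunk. They were known from earlier results to differ between the pools, and the difference between them and the members was not tested. The Mir196a genes share 20 bases with another microRNA locus, so reads that mapped to several places can be missing from their counts. The counted microRNA genes nearest to the members held few or no reads. They were Gm22914 for Mir148a, with 0 reads in both libraries, Mir6963 for Mir148b, with 0 reads in replicate 1 and 3 in replicate 2, and Mir8103 for Mir152, with 5 in each.

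Beside the members, the mir-130/mir-301 family has a seed that overlaps theirs. The seeds share 6 bases, AGUGCA, which stand at positions 3 to 8 in the members and 2 to 7 in mir-130/mir-301. Mature sequences with these bases at positions 2 to 7 belong to 7 genes in RefSeq, namely Mir130a, Mir130b, Mir301, Mir130c, Mir6341, Mir6389 and Mir721. Mir130c, Mir6341 and Mir6389 had no read in either library, and Mir721 is not among the counted genes. Mir301b was placed in the family by its symbol, without a sequence. The shared bases are in capitals below, in RefSeq sequences on GRCm38.p6, first for a member and then for the other family.
Mir148a 3′ arm: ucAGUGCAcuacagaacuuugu
Mir130a 3′ arm: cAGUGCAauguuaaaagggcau
Mir130b 3′ arm: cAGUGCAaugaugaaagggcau
Mir301 3′ arm: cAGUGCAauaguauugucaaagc

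In these libraries the mir-148/mir-152 genes held far fewer reads than mir-130/mir-301. Their share was 0.0704% ± 0.00466 of the gene-assigned reads, against 5.18% ± 0.0869 for the 4 genes of mir-130/mir-301 (SD, n = 2), a read ratio of 73.7 ± 3.64 for mir-130/mir-301 over mir-148/mir-152. Mir130a alone had 118847 and 126631 reads. The least abundant of the 4, Mir301b, had 315.7 CPM in replicate 1 and 225.7 CPM in replicate 2, values between which both values of Mir148b lay.

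The counted reads of the family were spread more evenly over its genes than those of mir-26 and mir-103/mir-107. The genes of those families lie in introns of related hosts, as Mir148b and Mir152 do. Mir148a held 49.1% and 50.4% of its family's reads, whereas Mir26b held 99.9% of mir-26 reads in both libraries and Mir107 91.8% and 93.0% of mir-103/mir-107 reads. The mir-26 genes lie in Ctdsp phosphatase genes and the mir-103/mir-107 genes in Pank genes for pantothenate kinases. Of these lists, 2 of 3 mir-26 genes and all 3 mir-103/mir-107 genes share 20 bases with another microRNA locus. No mir-148/mir-152 gene was found to do so. Genes that share such a run can lose reads that mapped to several places, so the shares describe counted reads and not the mature microRNAs. The part of this loss in the difference was not tested. In summed share, mir-148/mir-152 stood below mir-26 (2.71% ± 0.192, SD, n = 2) and mir-103/mir-107 (0.142% ± 0.0243).

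The family held more counted reads than mir-29, which is known for repressing the de novo DNA methyltransferases Dnmt3a and Dnmt3b. The mir-148/mir-152 genes held 0.0704% ± 0.00466 of the gene-assigned reads, against 0.0170% ± 0.00311 for the 4 mir-29 genes (SD, n = 2), which had 633 reads in replicate 1 and 545 in replicate 2. The mir-29 reads were 0.260 and 0.220 of those of mir-148/mir-152. Mir29c, its leading gene, had 137.1 and 97.2 CPM, both above the values of Mir152 and below those of Mir148b. Of the 4 mir-29 genes, 3 share 20 bases with another microRNA locus, so reads that mapped to several places can be missing from the mir-29 sum. How far this loss lowers the sum was not tested.

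**Figure D4:**
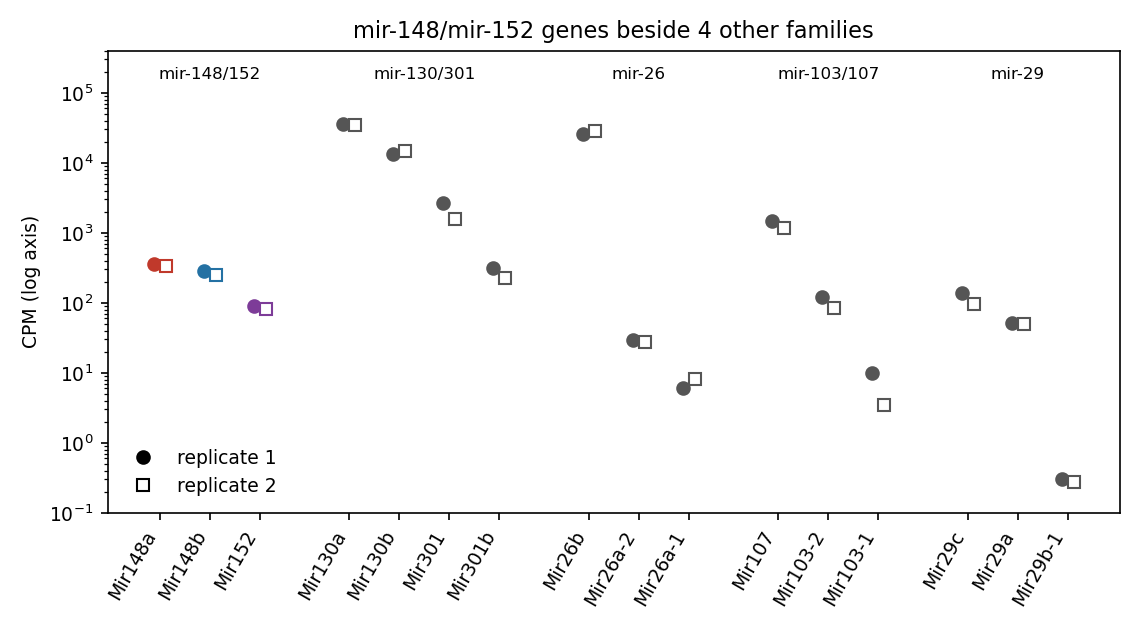
CPM on a log axis in replicate 1 (filled circles) and replicate 2 (open squares) for the mir-148/mir-152 genes and the genes of 4 other families, each ordered by level. Mir29b-2, with 9 reads in replicate 1 and 0 in replicate 2, is not drawn. The mir-148/mir-152 genes span 82.6 to 361.8 CPM, and mir-26 runs from 6.06 CPM for Mir26a-1 to 28411 CPM for Mir26b.

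The pools differed in marker microRNAs of several cell types, and hardly in the sum of the 2 counted leukocyte markers. The members stayed within 1.14-fold, a spread that is not particular to them. Marker microRNAs of neurons (5 of 5 with reads in both libraries) summed to 3851 CPM in replicate 1 and 2209 CPM in replicate 2, nearly all of it from Mir153 (2403 and 1408 CPM) and Mir137 (1424 and 782.4 CPM). Mir124a-3 of the same list had 16 and 34 reads. Those of mesenchyme (6 of 6) summed to 16222 and 13241 CPM. Of the neural progenitor markers (3 of 3 counted), Mir92b had 21246 and 25352 CPM, Mir9-3 had 137.1 and 66.8 CPM and Mir9-2 had 3 and 4 reads, so their sum, 21383 and 25420 CPM, is close to the value of Mir92b. Epithelial markers (5 of 5) summed to 2470 and 3343 CPM, with Mir200a of the other sign at 60.3 and 42.4 CPM. Outside this list, the epithelial Mir203 also had the other sign, at 871.8 and 666.4 CPM, and Mir141 had 55.5 and 83.1 CPM. Mir126a of endothelium had 26450 and 30780 CPM. Erythroid markers summed to 386.0 and 338.9 CPM, led by Mir451a, while Mir144 had 32.1 and 43.7 CPM. Leukocyte markers (2 of 3 counted, Mir223 and Mir155) summed to 588 and 581.4 CPM, and Mir142 of that list is not among the counted genes. Mir142b, outside the list, had 682.3 and 864.7 CPM (log2 ratio -0.35), more than that sum in both libraries. It shares 20 bases with another microRNA locus. The hepatocyte microRNA Mir122 had 5.76 and 15.2 CPM. Of 4 counted muscle markers, Mir1a-1, Mir133a-1 and Mir133a-2 had no reads, and Mir206 had 10.01 and 10.59 CPM. The muscle genes without reads share 20 bases with another microRNA locus, as do Mir9-2, Mir9-3, Mir126a, Mir451a and the Mir124a and Mir199a genes. Reads that mapped to several places stand outside these counts, so a low or absent count does not show that the mature microRNA was absent. The part of these cell types in the members' levels was not tested, and in pooled tissue fewer cells of a type and less RNA per cell cannot be told apart.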

How the data were processed

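Small RNA libraries of 2 pools of embryonic midbrain were analysed. Raw read counts of microRNA genes on mm10 and GENCODE M4 were deposited by the authors, per the description that comes with the files. No source used here names the aligner, counter or trimming. There are 1973 gene rows per file and 4 rows that name no gene (57.8% and 60.9% of all reads), which were left out of the totals. The first count column, the sum of both strands, was used. Of the identifiers 1894 matched GENCODE M21, for symbols and loci. The precursor coordinates of the members in RefSeq (GRCm38.p6) equal those of GENCODE, and all 3 members matched.

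CPM were computed per gene-assigned read total. For log2 ratios (replicate 1 over replicate 2), 0.5 reads were added and libraries scaled by TMM (edgeR 4.0.16). Genes with at least 10 reads in sum entered a two-sided exact binomial test, adjusted by Benjamini-Hochberg over all tested genes at 0.05 and checked on simulated counts. The test has no biological error term. Members and lists were chosen with earlier results of these data known. Named genes were the members, their neighbours in rank and position, and the listed families and markers. Alternatives were DESeq2 size factors (DESeq2 1.42.0), total counts, other filters, the strand column, other denominators, 2 added reads and single replicates. Python 3.11.15, scipy 1.17.1 and R 4.3.3 were used.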

Additional observations from a re-analysis of the deposited data

How the results depend on the processing

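The levels depend on what they are divided by. Per 1000000 reads of the whole library, Mir148a had 142.5, Mir148b 109.4 and Mir152 34.95, and the family held 0.0287%. Without the most abundant gene, Mir335, in the total, the CPM were 401.0, 307.2 and 98.3 and the family share 0.0807%, and without the genes that share 20 bases with another locus they were 420.3, 322.1 and 103.1 CPM and 0.0845%. The single strand column moved levels, family share and shares within the family by less than 1 SD, and TMM scaling did so for the levels, to which alone it was applied. With 2 replicates, leaving 1 out moves a mean by less than 1 SD by construction and shows nothing of its stability. The log2 ratios of the 3 members kept their sign and their side of the adjusted level of 0.05 under all 7 alternatives. The adjusted p of Mir148b ran from 0.00685 to 0.0452 (exact binomial test), and was highest with DESeq2 size factors. The number of genes called was 227 to 240 under the alternatives, against 241 of 485 tested. The number tested changed with the filter. From 1 read in sum 228 of 769 genes were called, and from 50 reads 227 of 354, so the share called depended on the filter. Testing genes from 1 or from 50 reads for the members' adjusted p, and the scaling without shared genes for the number called, were chosen after seeing the data. A log2 ratio could not be computed with a replicate left out. No paired analysis was possible because there is 1 group. With 294 and 304 reads, Mir152 has a counting interval of its ratio from 0.914 to 1.27, which limits what could be detected.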
